A study of Homo sapiens with 23 samples.

Results

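Complement is an arm of innate immunity, and the RNA of 10 of its genes was followed on expression arrays of a breast epithelial cell line during induced transformation. The genes are 6 secreted components or proteases (CFB, C3, C1R, C1S, CFI and CFD), the secreted inhibitor SERPING1, and the membrane regulators CD46, CD55 and CD59. They were taken by symbol from the probe sets that the platform annotation gives to exactly 1 gene, and are 10 of 19775 genes and 21 of the 41097 probe sets chosen this way, on arrays of 54675. Each gene is represented by its main probe set, which is the one with the highest mean log2 signal over all arrays. The cells were MCF10A-ER-Src, a non-transformed mammary epithelial line that carries the v-Src kinase joined to a hormone-binding piece of the estrogen receptor, so that tamoxifen switches the kinase on. All groups carried this fusion and were seeded into 25 nM of an siRNA pool, either a non-targeting pool (siNEG) or a pool against STAT3 (siSTAT3). After 48 h of growth the cells received 1 µM tamoxifen (TAM) or ethanol alone (EtOH), and RNA was harvested 4 or 24 h later. Each of the 8 groups had 3 arrays, except siSTAT3 cells with TAM for 24 h, which had 2, and the replicate 1 of that group was not analysed here. Only 1 pool of each kind was used and no cells without ER-Src were treated, so knockdown of STAT3 and other effects of its pool cannot be told apart, nor can Src induction and other effects of TAM. The study also mapped open chromatin and the binding of STAT3 and FOS, and its arrays asked which RNA changes of transformation need STAT3.

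Complement proteins circulate as inactive precursors that cleave one another in sequence on a surface. C1R and C1S are the paired serine proteases of the C1 complex that open the classical pathway, C3 is the protein on which all pathways converge, and CFB and CFD are the components of the alternative pathway that build and activate its C3-cleaving enzyme. The system is held back by SERPING1, which inactivates C1R and C1S, by CFI, a protease that degrades the active fragments of C3 and C4, and by 3 proteins of the host cell surface. Of these, CD46 is a cofactor for CFI, CD55 speeds the decay of C3-cleaving enzymes, and CD59 blocks assembly of the membrane attack pore. Most circulating complement is made in the liver, but epithelial cells also make several components, and several of these genes are known as acute-phase or cytokine-responsive genes.

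Array signals were similar in scale: the median per array was 73.5 to 85.3 signal units, and between 44.6% and 46.9% of the probe sets on an array exceeded 100 units. Signal units here are the linear intensities that the MAS5 algorithm gives per probe set, and 100 units is used as the limit below which a gene is treated as not clearly expressed. STAT3 itself fell with siSTAT3 in every condition, by 12.2-fold and 10.5-fold with EtOH at 4 and 24 h, and by 13.1-fold and 15.3-fold with TAM. In siNEG cells its mean signal was 4022 ± 94.5 units with EtOH at 4 h and 6119 ± 570 units with TAM at 24 h (SD, n = 3). The cells had the markers of a mammary epithelial line: all 3 measured basal markers (KRT5, KRT14 and ITGB4) and 5 of 6 luminal markers were above 100 units. Of the markers of other cell types, 2 of 6 for fibroblasts (COL1A1 and DCN), 2 of 6 for immune cells (CD14 and ITGAM), 1 of 4 for endothelium (PECAM1) and 1 of 4 for hepatocytes (FGB) exceeded 100 units in some group. The defining markers PTPRC, CSF1R, VWF, CDH5, ALB and PDGFRB stayed under 100 units in every group.

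Of the 10 genes, 8 were above 100 units on all 23 arrays. The others, CFD and SERPING1, were below 100 units on every array, with ranges of 11.7 to 75.6 units and 1.41 to 37.6 units, and neither passed the test in any of the 13 comparisons. The alternative pathway protease and the C1 inhibitor were therefore not clearly expressed at the sensitivity of these probe sets, and their changes are not described further. The 8 expressed genes fell into patterns that differed in range: group means spanned 8.47-fold for CFB, 6.18-fold for C1S, 5.73-fold for C1R and 4.35-fold for CFI, against 3.02-fold for CD55, 2.22-fold for CD59, 1.58-fold for CD46 and 1.53-fold for C3.

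**Figure D1:**
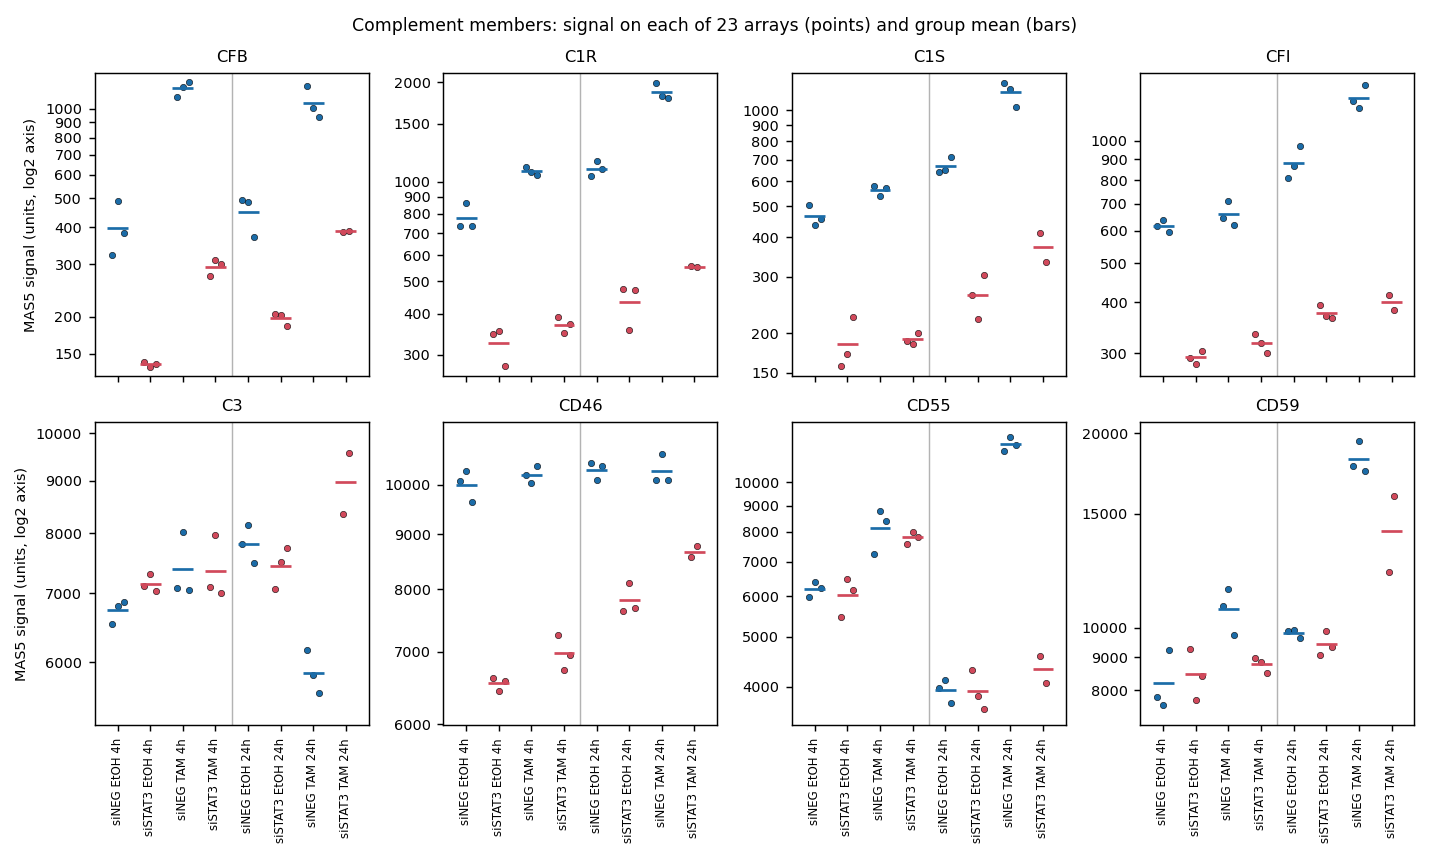
Signal of the main probe set of 8 complement genes on each of 23 arrays (points; vertical axes in MAS5 signal units on a log2 scale that differs between panels), by siRNA, treatment and time, with siNEG arrays in blue, siSTAT3 arrays in red and horizontal bars at the group means. CFB, C1R, C1S, CFI and CD46 lie lower in siSTAT3 than in siNEG cells in all 4 conditions, whereas CD55 is highest on the 3 siNEG TAM 24 h arrays (11519 to 12230.0 units).

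The sequences before the start sites of 5 members whose RNA changed are shown because the study concerns a transcription factor. Each is the 250 bases before the start site on the strand of the gene, 5′ to 3′, from RefSeq (GRCh38.p14), at chr6:31945845-31946094 (+ strand) for CFB, chr12:7092446-7092695 (− strand) for C1R, chr4:109802000-109802249 (− strand) for CFI, chr1:207321428-207321677 (+ strand) for CD55 and chr11:33736480-33736729 (− strand) for CD59. Where the table held several start sites, the one at the outer end of the gene was used. Capitals mark matches, on either strand, to the STAT motif TTCNNNGAA, the C/EBP motif TTGCNNAA, the AP-1 motif TGANTCA, the interferon response motif GAAANNGAA or the NF-kB motif.
CFB: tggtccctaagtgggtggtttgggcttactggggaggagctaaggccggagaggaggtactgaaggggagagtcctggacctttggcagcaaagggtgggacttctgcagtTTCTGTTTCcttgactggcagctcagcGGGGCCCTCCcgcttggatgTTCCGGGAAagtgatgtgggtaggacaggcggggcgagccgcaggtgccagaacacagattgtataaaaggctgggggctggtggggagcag
C1R: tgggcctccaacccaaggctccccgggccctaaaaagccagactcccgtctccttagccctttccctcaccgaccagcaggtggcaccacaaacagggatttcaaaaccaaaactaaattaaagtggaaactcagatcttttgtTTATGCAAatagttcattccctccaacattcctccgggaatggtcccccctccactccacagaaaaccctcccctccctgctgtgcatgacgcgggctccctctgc
CFI: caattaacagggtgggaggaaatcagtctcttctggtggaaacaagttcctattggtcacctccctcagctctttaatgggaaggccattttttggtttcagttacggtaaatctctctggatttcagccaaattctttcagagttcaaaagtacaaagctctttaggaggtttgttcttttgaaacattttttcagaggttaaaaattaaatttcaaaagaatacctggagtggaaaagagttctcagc
CD55: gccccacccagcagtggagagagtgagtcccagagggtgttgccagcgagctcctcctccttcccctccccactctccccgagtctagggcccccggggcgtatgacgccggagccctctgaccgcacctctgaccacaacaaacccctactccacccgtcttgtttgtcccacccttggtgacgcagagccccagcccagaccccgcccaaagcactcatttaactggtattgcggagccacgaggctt
CD59: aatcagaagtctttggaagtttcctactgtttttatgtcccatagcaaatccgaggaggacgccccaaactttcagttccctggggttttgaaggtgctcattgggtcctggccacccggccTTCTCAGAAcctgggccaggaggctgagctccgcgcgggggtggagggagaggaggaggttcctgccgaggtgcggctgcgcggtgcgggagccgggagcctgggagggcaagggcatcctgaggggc
The CFB window held a STAT match (TTCCGGGAA) at positions -92 to -84 from the start site, an NF-kB match at -112 to -103 and an interferon response match on the opposite strand at -139 to -131, none of which overlapped. The CD59 window held a STAT match (TTCTCAGAA) at -128 to -120, and the C1R window held a C/EBP match on the opposite strand at -106 to -99. No motif of the 5 occurred in the CFI, CD55, CD46 or CFD windows. The STAT motif was therefore present in 2 of the 7 members with a window, against 6.57% of all 35116 windows of the same length. For the other motifs the shares of all windows were 9.05% for C/EBP, 6.57% for AP-1, 6.88% for interferon response and 9.96% for NF-kB. C3, C1S and SERPING1 had no window in the table.

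The component genes CFB, C1R, C1S and CFI and the regulator CD46 were lower in siSTAT3 cells already in EtOH, without TAM. With EtOH at 4 h these 5 members fell and none rose, while 2.41% of all genes were called lower and 371 of 19775 higher. At 24 h with EtOH the 5 that fell were again these, against 1.46% of all genes. With TAM at 4 h the same 5 fell against 4.61% of all genes. With TAM at 24 h, 7 members fell (these 5, CD55 and CD59) and 1 rose (C3), against 6.77% of all genes lower and 9.72% higher. The 4 comparisons use different arrays but share the siRNA pools and the estimate of spread. In each of them 5 of the 10 members were lower, as were 143 of 19775 genes (0.723%). The members were chosen with earlier results of these data known, and the shares cover all genes, expressed or not. The counts and medians here, and the counts below, are therefore no test of the members as a set. A gene is called when its adjusted p is below 0.05 in the limma fit over all 23 arrays, and adjusted p is the Benjamini-Hochberg value over all probe sets. The median log2 difference of the 10 members was -0.33, -0.26, -0.78 and -1.43 in these 4 comparisons (EtOH 4 h, EtOH 24 h, TAM 4 h, TAM 24 h), and that of all genes lay between -0.04 and 0.03.

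CFB, which supplies the catalytic subunit of the alternative pathway enzyme, had the widest range. In siNEG cells its signals were 324, 490.3 and 383 units with EtOH at 4 h, 1099, 1185 and 1231 with TAM at 4 h, 494, 486 and 370.3 with EtOH at 24 h, and 1189.7, 1008 and 941 with TAM at 24 h. With siSTAT3 the values were 141, 135 and 139 units with EtOH at 4 h, 275, 309 and 300.1 with TAM at 4 h, 204, 203 and 186 with EtOH at 24 h, and 385 and 389 with TAM at 24 h. TAM arrays lay above the EtOH arrays of the same siRNA and time, and siSTAT3 arrays below the siNEG arrays of the same treatment and time, while siSTAT3 cells with TAM for 24 h lay within the range of siNEG cells with EtOH at that time. TAM raised CFB in siNEG cells by 2.98-fold at 4 h (log2 1.57, SE 0.137, adjusted p 3.57e-06) and by 2.33-fold at 24 h (adjusted p 8.15e-06). It also raised CFB in siSTAT3 cells, by 2.13-fold at 4 h (adjusted p 0.000846) and 1.96-fold at 24 h (adjusted p 0.00206). siSTAT3 lowered CFB by 2.84-fold with EtOH and 3.98-fold with TAM at 4 h, and by 2.26-fold and 2.69-fold at 24 h (adjusted p 6.6e-06, 6.62e-08, 0.00011 and 4.36e-06). The interaction, or how far the TAM effect with siSTAT3 exceeded the TAM effect with siNEG on the log2 scale, was -0.49 at 4 h (95% interval -0.90 to -0.07, adjusted p 0.538) and -0.25 at 24 h (-0.69 to 0.18, adjusted p 0.66). The TAM and siSTAT3 calls of CFB held when any 1 array of the comparison was left out. The other probe set of CFB (211920_at) was between 2.59 and 50.6 units on all arrays, and all these calls were lost when the log2 signals of both probe sets were averaged, for example to 1.53 with adjusted p 0.193 for TAM in siNEG cells at 4 h.

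C1R and C1S, the neighbouring protease genes on chromosome 12, moved together. C1R signals in siNEG cells were 738, 864 and 738 units with EtOH at 4 h, 1107, 1071 and 1050.5 with TAM at 4 h, 1044, 1152 and 1095 with EtOH at 24 h, and 1989, 1819 and 1795 with TAM at 24 h. siSTAT3 cells gave 347, 354 and 278 units, 391, 349 and 371, 473, 357 and 469.9, and 557 and 551 in the same order of groups. No siSTAT3 array of C1R reached the lowest siNEG array of 738 units. C1R was lower with siSTAT3 by 2.40-fold with EtOH at 4 h and 2.55-fold at 24 h, and by 2.91-fold and 3.37-fold with TAM (adjusted p 6.6e-06, 3.07e-06, 1.71e-07 and 4.74e-08).

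C1S signals in siNEG cells were 506, 438 and 457 units with EtOH at 4 h, 579, 539 and 571 with TAM at 4 h, 642, 651 and 712 with EtOH at 24 h, and 1224, 1169 and 1024 with TAM at 24 h. Signals with siSTAT3 were 157, 172 and 224 units, 188, 185 and 199.8, 264, 222 and 305, and 413 and 334 in that order. All 11 siSTAT3 arrays of C1S were below the lowest siNEG array. C1S was lower with siSTAT3 by 2.56-fold with EtOH at 4 h and 2.55-fold at 24 h, and by 2.95-fold and 3.06-fold with TAM (adjusted p 1.64e-05, 2.3e-05, 9.65e-07 and 8.53e-07). Over the 8 group means the log2 signals of C1R and C1S had a Pearson correlation of 0.991, and those of C1R and CFI 0.985. These points share their arrays, so the values describe likeness only. The other probe set of C1S (1555229_a_at) stayed below 100 units on all arrays, and was called lower with EtOH at 4 h only (adjusted p 0.0202).

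CFI, the protease that inactivates C3 and C4 fragments, showed the same order of groups. In siNEG cells its signals were 618, 637 and 598 units with EtOH at 4 h, 646, 710.3 and 622 with TAM at 4 h, 812, 867 and 969.7 with EtOH at 24 h, and 1251, 1207 and 1371 with TAM at 24 h. The siSTAT3 signals were 292, 283 and 305 units, 335, 317 and 299.7, 395, 369.7 and 366, and 418 and 384 in that order. The highest siSTAT3 array, at 418 units, was below the lowest siNEG array. CFI was lower with siSTAT3 by 2.11-fold with EtOH at 4 h and 2.34-fold at 24 h, and by 2.08-fold and 3.18-fold with TAM (adjusted p 1.45e-06, 4.05e-07, 4.14e-07 and 2.04e-09). Its other probe set (1555564_a_at) differed in the same direction in all 4 comparisons, with log2 -0.76 (adjusted p 0.0631) and -0.98 (0.0204) for EtOH at 4 and 24 h and -0.84 (0.021) and -1.36 (0.000648) for TAM. Of these 3 calls, that with EtOH at 24 h was lost without any 1 of 5 of its 6 arrays (all but siNEG replicate 2), that with TAM at 4 h without any 1 of 4 (replicates 1 and 2 of siNEG, 1 and 3 of siSTAT3), and that with TAM at 24 h held. The siSTAT3 calls of C1R, C1S and CFI held when any 1 array of the comparison was left out. The summed signals of the fibroblast, immune and basal epithelial marker lists were lower on siSTAT3 than on siNEG arrays in all 4 conditions, without overlap. This was the direction of CFB, C1R, C1S, CFI and CD46. The luminal epithelial list went the other way and was higher on siSTAT3 arrays in all 4 conditions, without overlap. Luminal sums with EtOH were 40120 to 42120 (4 h) and 41220 to 46720 units (24 h) with siNEG. They were 44990 to 47050 and 46840 to 49280 with siSTAT3. Under TAM they were 43440 to 47220 and 29810 to 33110 units with siNEG, and 50230 to 57440 and 50730 to 59090 with siSTAT3. The endothelial and hepatocyte sums were lower on siSTAT3 arrays at 4 h and overlapped with EtOH at 24 h. With TAM at 24 h the endothelial sum was higher on siSTAT3 arrays, at 396.6 to 419.2 against 300.9 to 329.2 units. The hepatocyte sum was lower there, at 256.4 to 256.5 against 264.9 to 313.3 units. The fibroblast sum (6 of 6 measured, with COL1A2, COL3A1, LUM and PDGFRB under 100 units) on siNEG arrays was 2846 to 3472 units with EtOH and 3330 to 3411 with TAM at 4 h, and 5681 to 5941 and 6800 to 7846 at 24 h. On siSTAT3 arrays it was 2059 to 2319 and 2309 to 2503 units at 4 h, and 3099 to 3115 and 2899 to 2946 at 24 h. The immune sum (6 of 8 measured, with PTPRC, CSF1R, CD163 and CD3D under 100 units) was 842 to 1158 units on siNEG and 529.3 to 910.9 on siSTAT3 arrays, and the basal sum (3 of 7 measured) 30350 to 40640 and 26070 to 32550 units. The part of these markers in the results of these 5 genes was not tested, and in bulk RNA fewer cells of a type and less RNA per cell cannot be told apart.

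CD46, the membrane cofactor of CFI, was lower with siSTAT3 by a smaller factor. Its signals in siNEG cells lay between 9638 and 10683 units on all 12 arrays. With siSTAT3 the values were 6620.2, 6432 and 6583 units with EtOH at 4 h, 7259.6, 6735 and 6957 with TAM at 4 h, 7637, 8112 and 7687 with EtOH at 24 h, and 8564 and 8775 with TAM at 24 h. No siSTAT3 array reached the siNEG range. CD46 was 1.53-fold lower with EtOH and 1.46-fold lower with TAM at 4 h, and 1.32-fold and 1.19-fold lower at 24 h (adjusted p 1.59e-05, 1.35e-05, 0.0012 and 0.0226). CD46 was called in none of the 4 TAM comparisons by limma (at 24 h in siSTAT3 cells the 95% interval was 0.0069 to 0.29), with log2 values of 0.03 and -0.0045 in siNEG cells and 0.09 and 0.15 in siSTAT3 cells at 4 and 24 h. The TAM 24 h call was lost without siNEG TAM 24 h replicate 2 or either siSTAT3 TAM 24 h array (log2 -0.27 to -0.22, adjusted p 0.0798 to 0.126), whereas the calls in the other 3 conditions held without any 1 array. The EtOH 24 h call was lost in a fit of the 24 h arrays alone (adjusted p 0.0661), and the TAM 24 h difference was -0.10 (adjusted p 0.418) as the mean of the 3 probe sets. Of the 2 other probe sets of CD46, 207549_x_at was called lower at 4 h with EtOH (log2 -0.40) and TAM (-0.33), calls lost without any 1 of 4 and of all 6 arrays (highest adjusted p 0.116 and 0.181), and 211574_s_at at 24 h with EtOH (-0.49), which held. For 211574_s_at the interaction at 24 h was 0.52 (adjusted p 0.0363), a call that was lost without any 1 of 9 of the 11 arrays involved (all but siNEG EtOH 24 h replicate 3 and siNEG TAM 24 h replicate 1), and for 207549_x_at it was 0.24 (adjusted p 0.492).

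**Figure D2:**
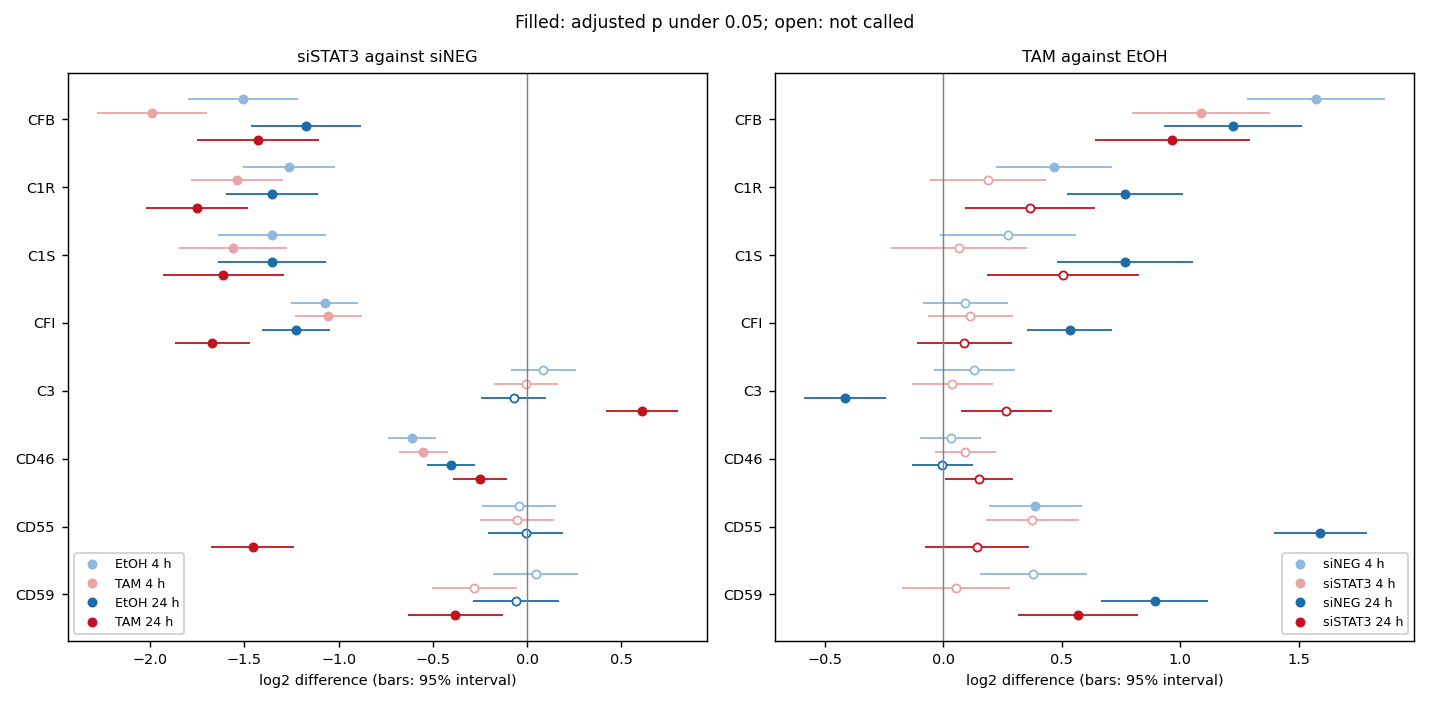
Log2 differences of the main probe sets (horizontal axes) for siSTAT3 against siNEG cells (left) and for TAM against EtOH (right), with 95% intervals as bars, the 4 conditions in different colours, filled points where the adjusted p is below 0.05 and open points otherwise. On the left, CFB, C1R, C1S, CFI and CD46 are filled and below 0 in all 4 conditions, while CD55 is filled at -1.46 only with TAM at 24 h. On the right, CFB is filled in all 4 conditions.

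TAM changed few of these genes early and most of them late. In siNEG cells at 4 h, 3 members rose (CFB, C1R and CD55) and none fell, against 1.67% of all genes called higher and 313 of 19775 lower. At 24 h, 6 rose (CFB, C1R, C1S, CFI, CD55 and CD59) and 1 fell (C3), against 6.06% of all genes higher and 9.31% lower. The rises at 24 h were 1.70-fold for C1R (adjusted p 0.000182), 1.70-fold for C1S (adjusted p 0.000855) and 1.45-fold for CFI (adjusted p 0.000316). At 4 h the differences of C1S and CFI were log2 0.27 and 0.09 (adjusted p 0.441 and 0.755), and the 1.38-fold rise of C1R had adjusted p 0.0399. The C1R call at 4 h was lost without any 1 of 5 of its 6 arrays (siNEG EtOH 4 h replicate 1 or 3, or any siNEG TAM 4 h array), with adjusted p of 0.0849 to 0.145 and log2 values of 0.43 to 0.54 over all 6. The 7 calls at 24 h held without any 1 array. As the mean of all probe sets of a gene, those of CFB (log2 0.51, adjusted p 0.661) and C1S (0.68, adjusted p 0.134) were lost.

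In siSTAT3 cells fewer members were called with TAM. At 4 h CFB alone was called higher, against 0.531% of all genes, and at 24 h CFB and CD59 were, against 2.00% of all genes. No member was called lower at either time, against 57 and 148 of 19775 genes. Before adjustment, the limma p at 24 h was below 0.05 for 6 members (CFB, C3, C1R, C1S, CD46 and CD59), against 7 in siNEG cells. At 4 h it was below 0.05 for 2 members, against 4 in siNEG cells. These unadjusted counts have no share of all genes beside them. The 24 h differences of C1R, C1S and CFI in siSTAT3 cells were log2 0.37, 0.51 and 0.09 (adjusted p 0.212, 0.123 and 0.814). For these 3 genes the TAM effect was not shown to differ between siSTAT3 and siNEG cells: the interactions at 24 h were -0.40 (95% interval -0.77 to -0.03, adjusted p 0.289) for C1R, -0.26 (-0.69 to 0.17, adjusted p 0.642) for C1S and -0.45 (-0.71 to -0.18, adjusted p 0.0646) for CFI. The interaction of CFI passed when probe sets below 100 units in every group were left out (adjusted p 0.0157) or with an intensity trend (0.0344). At 4 h no member had an interaction by limma, with 0.521% of all genes called in either direction and with CFB and CD59 the 2 members at an unadjusted p below 0.05. At 24 h C3 passed upward and CD55 downward, against 3.42% and 2.49% of all genes.

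C3, the central component, passed the test only at 24 h, where it fell with TAM in siNEG cells while CFB, C1R, C1S and CFI rose. Its signals in siNEG cells were 6539.8, 6802 and 6869 units with EtOH at 4 h, 7088, 8029.6 and 7056 with TAM at 4 h, 7812, 8146 and 7492 with EtOH at 24 h, and 6163, 5830.2 and 5605 with TAM at 24 h. In siSTAT3 cells the EtOH and TAM arrays at 4 h and the EtOH arrays at 24 h lay between 7000.3 and 7979.5 units, and the TAM arrays at 24 h were at 8348 and 9584 units. The siNEG TAM 24 h arrays were the lowest of all 23 and the siSTAT3 TAM 24 h arrays the highest. TAM lowered C3 by 1.33-fold in siNEG cells at 24 h (log2 -0.41, SE 0.0811, adjusted p 0.00212), while in siSTAT3 cells the difference was 0.27 (95% interval 0.07 to 0.46, adjusted p 0.194). The interaction was 0.68 (SE 0.122, adjusted p 0.00259), and C3 was 1.53-fold higher in siSTAT3 than in siNEG cells with TAM at 24 h (adjusted p 0.00015). With EtOH at 4 and 24 h and TAM at 4 h, the siSTAT3 differences were 0.09, -0.07 and -0.01, and their 95% intervals lay between -0.24 and 0.26. The C3 calls at 24 h held without any 1 array, including either of the 2 siSTAT3 TAM arrays. The luminal epithelial markers also differed there, with a summed signal (6 of 6 measured, KRT19 under 100 units) of 29810 to 33110 units on siNEG TAM 24 h arrays against 50730 to 59090 on siSTAT3 TAM 24 h arrays and 40120 to 57440 on all others, and their part in the C3 result was not tested.

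CD55, which dismantles C3-cleaving enzymes on the cell surface, had the largest interaction at 24 h among the main probe sets of the 8 expressed members. In siNEG cells its signals were 5975, 6387 and 6220.1 units with EtOH at 4 h, 7235, 8777 and 8394 with TAM at 4 h, 3967, 4124 and 3720.4 with EtOH at 24 h, and 11519, 12230.0 and 11819.8 with TAM at 24 h. siSTAT3 cells gave 5463, 6469.9 and 6157 units, 7597, 7998 and 7838, 4311, 3842 and 3614, and 4583 and 4067 in the same order. The siSTAT3 arrays overlapped the siNEG arrays in EtOH at both times and in TAM at 4 h, and lay far below them in TAM at 24 h. TAM raised CD55 by 3.01-fold in siNEG cells at 24 h (log2 1.59, SE 0.093, adjusted p 3.23e-09), against 0.14 (95% interval -0.08 to 0.36, adjusted p 0.678) in siSTAT3 cells. The interaction at 24 h was -1.45 (SE 0.139, adjusted p 5.94e-06), and with TAM at 24 h CD55 was 2.75-fold lower in siSTAT3 cells (adjusted p 3.18e-08). The ratio of the 3′ to the 5′ probe set of ACTB, a measure of RNA integrity, also differed between these groups, at 1.209 and 1.213 on the siSTAT3 TAM 24 h arrays against 1.312 to 1.353 with siNEG and TAM and 1.298 to 1.301 with siSTAT3 and EtOH at 24 h. The same ratio for GAPDH overlapped between these groups, at 0.9334 and 0.9127 against 0.9196 to 0.9665 and 0.91 to 0.9413. On the siSTAT3 TAM 4 h arrays the ACTB ratio was 1.212, 1.339 and 1.242. The part of RNA integrity in the 24 h results of CD55, C3 and CD59 was not tested.

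At 4 h the TAM effect on CD55 was log2 0.39 in siNEG cells (adjusted p 0.0334) and 0.38 in siSTAT3 cells (adjusted p 0.0953). Their difference, the interaction, was -0.01 with a 95% interval of -0.29 to 0.27. The rise in siNEG cells was larger at 24 h than at 4 h by 1.20 (adjusted p 2.66e-05), as 1 of 2 members whose TAM effect differed between the times, the other being C3 (-0.55, adjusted p 0.0103), against 2.97% of all genes upward and 2.62% downward. The 3 probe sets of CD55 gave interactions at 24 h of -1.45, -1.23 and -1.53, all called. For TAM in siNEG cells at 4 h the other probe sets gave 0.43 (201926_s_at, adjusted p 0.00585, held without any 1 array) and 0.33 (1555950_a_at, adjusted p 0.119). The CD55 call at 4 h was lost without any 1 of 5 of its 6 arrays (any siNEG EtOH 4 h array, or siNEG TAM 4 h replicate 2 or 3; adjusted p 0.0735 to 0.159), whereas its calls with TAM at 24 h held without any 1 array.

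CD59, the inhibitor of the membrane attack pore, rose with TAM in siNEG cells on all 5 probe sets at 24 h and on 4 of them already at 4 h, and the probe sets gave interactions of different size. On the main probe set (200983_x_at) the siNEG signals were 7817, 7588 and 9232 units with EtOH at 4 h, 10808, 11491 and 9729 with TAM at 4 h, 9897, 9916 and 9623 with EtOH at 24 h, and 17781, 19439 and 17492 with TAM at 24 h. Signals with siSTAT3 were 9258, 7725 and 8418 units, 8979, 8840.4 and 8494, 9066, 9871 and 9338, and 12210.0 and 16011 in the same order. The siSTAT3 TAM 24 h arrays lay between the EtOH arrays and the siNEG TAM arrays, and differed from each other more than the arrays of other groups. TAM raised this probe set by 1.86-fold in siNEG cells (adjusted p 1.62e-05) and by 1.48-fold in siSTAT3 cells (adjusted p 0.0186) at 24 h, and the interaction was -0.32 (95% interval -0.66 to 0.02, adjusted p 0.383). The call in siSTAT3 cells was lost without siSTAT3 EtOH 24 h replicate 1 or 3 or siSTAT3 TAM 24 h replicate 3 (log2 0.37 to 0.77 over the 5 arrays, adjusted p 0.0614 to 0.365). The 1.30-fold lower level with siSTAT3 and TAM at 24 h (adjusted p 0.0468) was lost without any siNEG TAM 24 h array or siSTAT3 TAM 24 h replicate 2, and was log2 -0.19 (adjusted p 0.494) without the latter.

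Probe sets 212463_at and 228748_at of CD59 gave another picture. Signals of 212463_at in siNEG cells were 2089, 1791 and 2015 units with EtOH and 7008, 6620.2 and 7009.9 with TAM at 24 h. The siSTAT3 signals were 1789.8, 1860.1 and 1741 with EtOH and 2899.6 and 2851 with TAM at 24 h. TAM thus raised this probe set by 3.51-fold in siNEG cells and by 1.60-fold in siSTAT3 cells (adjusted p 6.87e-11 and 0.000295), and the interaction was -1.13 (SE 0.116, adjusted p 1.12e-05). For 228748_at the TAM effects at 24 h were 3.72-fold and 1.71-fold, and the interaction was -1.12 (adjusted p 0.000615). The remaining probe sets, 200985_s_at and 200984_s_at, had interactions of -0.32 and -0.33 (adjusted p 0.171 and 0.221), close to that of the main probe set. All 5 probe sets of CD59 thus gave a negative interaction at 24 h, and they differed in its size and in whether it passed the threshold. The cause of this difference between probe sets was not tested. At 4 h all 4 probe sets other than the main one rose with TAM in siNEG cells, by 1.42-fold to 1.69-fold, and all 4 were lower with siSTAT3 in TAM. With the mean of all 5 probe sets the interaction was -0.47 at 4 h (adjusted p 0.0167) and -0.65 at 24 h (adjusted p 0.000212).

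**Figure D3:**
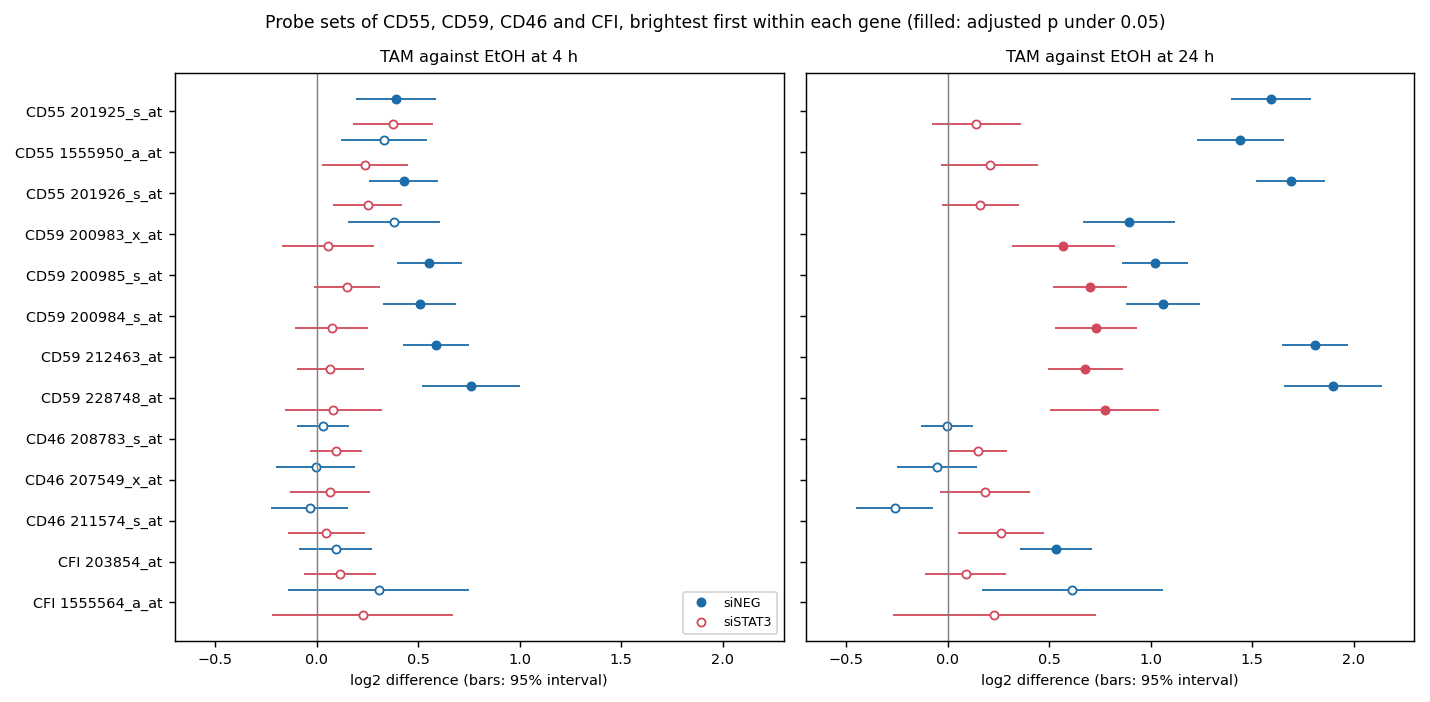
Log2 differences between TAM and EtOH (horizontal axes, 95% intervals as bars) for every probe set of CD55, CD59, CD46 and CFI at 4 h (left) and 24 h (right), in siNEG cells (blue) and siSTAT3 cells (red), with filled points where the adjusted p is below 0.05. At 24 h the CD55 probe sets lie at 1.44 to 1.69 in siNEG cells and 0.14 to 0.21 in siSTAT3 cells, while those of CD59 lie at 0.89 to 1.90 and 0.57 to 0.77.

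Some of these genes also changed with time in culture without TAM. In siNEG cells with EtOH, 3 members were higher at 24 h than at 4 h (C1R, C1S and CFI, by 1.41-fold, 1.43-fold and 1.43-fold) and CD55 was 1.57-fold lower, against 6.82% of all genes higher and 5.52% lower. In siSTAT3 cells 5 were higher (CFB, C1R, C1S, CFI and CD46, by 1.43-fold, 1.32-fold, 1.43-fold, 1.29-fold and 1.19-fold) and CD55 was 1.54-fold lower, against 8.14% and 5.28%. The upward counts of 3 and 5 of 10 are above these shares, but the members were chosen with earlier results of these data known. The shares also cover all genes, expressed or not, so the counts are no test of the members as a set. The single fall of CD55 does not stand far from the shares. The fall of CD55 was smaller on its other probe sets, at log2 -0.22 (201926_s_at) and -0.20 (1555950_a_at) in siNEG cells, neither of which was called. The calls of C1R, CFI and CD55 in siNEG cells and of CFI and CD55 in siSTAT3 cells held without any 1 array. The C1S call in siNEG cells was lost without replicate 2 or 3 of either time (adjusted p 0.0514 to 0.0885). In siSTAT3 cells the CFB call was lost without any 4 h array or 24 h replicate 1 or 2 (0.0536 to 0.0759), the C1R call without 4 h replicate 3 or 24 h replicate 1 or 3 (0.137 to 0.161), the C1S call without 4 h replicate 1 or 2 or 24 h replicate 1 or 3 (0.0575 to 0.108), and the CD46 call without 24 h replicate 2 (0.0613). The level of C1R, C1S and CFI with TAM at 24 h in siNEG cells thus includes a rise with time that EtOH cells also had, and the TAM effects above are against EtOH arrays of the same time.

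Most other complement genes were not clearly expressed. Of 51 further genes on the list of recognition molecules, proteases, terminal components, soluble regulators and receptors, 44 had a probe set of their own and 10 exceeded 100 units in some group. With TAM in siNEG cells none of the 44 was called at 4 h by limma, and at 24 h 2 rose (C1RL and C3AR1) and 2 fell (C5 and CLU), which is no larger a share than the 6.06% and 9.31% of all genes called higher and lower. With siSTAT3, 1 of the 44 was lower with EtOH at each time (C1RL), 2 with TAM at 4 h, and 5 were lower and 2 higher with TAM at 24 h, against 2.41%, 1.46%, 4.61%, 6.77% and 9.72% of all genes in the same order. By list, the 4 called with TAM in siNEG cells were 1 of 14 recognition molecules and proteases, 1 of 7 terminal components, 1 of 11 soluble regulators and 1 of 12 receptors. C1RL, a relative of C1R whose gene lies beside it so that C1S, C1R and C1RL are consecutive coding genes, was also lower with siSTAT3 in all 4 comparisons. C1RL signals with EtOH at 4 h were 1129, 1086 and 1040.3 units in siNEG cells and 568, 646 and 687 in siSTAT3 cells, and with TAM at 24 h they were 1799, 1710.1 and 1809.5 against 1006 and 842. The siSTAT3 differences of C1RL were log2 -0.78, -0.68, -0.69 and -0.95 for EtOH at 4 h, EtOH at 24 h, TAM at 4 h and TAM at 24 h (adjusted p 0.000141, 0.000696, 0.000146 and 8.57e-06). When all probe sets of C1RL were averaged, the calls with EtOH at 4 and 24 h and with TAM at 4 h were lost, at log2 -1.39, -0.55 and -0.70 (adjusted p 0.0551, 0.646 and 0.354). The rise of C1RL with TAM at 24 h (log2 0.32, adjusted p 0.0385) was lost without siNEG EtOH 24 h replicate 1 or 2 or any siNEG TAM 24 h array (highest adjusted p 0.165).

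C3AR1, the receptor for the C3a fragment, was at 42.9, 40.4 and 58.2 units with EtOH and 219, 159 and 202 units with TAM in siNEG cells at 24 h. In siSTAT3 cells it was at 47.6, 60.9 and 62.2 units with EtOH and 60.7 and 34.2 with TAM, so that it exceeded 100 units only on the siNEG TAM 24 h arrays. Since the other groups were at group means of 40.1 to 70.2 units, no fold change or test of C3AR1 is read as a result. C3AR1 met the 100 unit limit through the siNEG TAM 24 h group alone. CLU (clusterin), an inhibitor of the membrane attack pore, was at 591, 638 and 566 units with EtOH and 307, 294 and 288 with TAM in siNEG cells at 24 h, and at 559, 618 and 573 units and 510.1 and 539 in siSTAT3 cells. It fell with TAM by log2 1.01 in siNEG cells (adjusted p 9.42e-05), and its interaction was 0.86 (adjusted p 0.0298), a call lost without any 1 of 8 of the 11 arrays (all but siNEG EtOH 24 h replicate 3, siNEG TAM 24 h replicate 1 and siSTAT3 EtOH 24 h replicate 2; highest adjusted p 0.131). The siNEG TAM 24 h arrays were the lowest of all 23 arrays for CLU, as for C3. C5, the precursor of the anaphylatoxin C5a, was near the 100 unit limit, with a highest group mean of 119.7 units. With TAM it fell by log2 0.44 in siNEG cells at 24 h (adjusted p 0.0202). This call was lost without siNEG EtOH 24 h replicate 1 or 3 or siNEG TAM 24 h replicate 2 or 3 (highest adjusted p 0.0771). In siSTAT3 cells the TAM difference of C5 at 24 h was log2 -0.79 (adjusted p 0.00298), with TAM arrays at 63.4 and 55.7 units, below that limit. Its siSTAT3 difference with TAM at 24 h was log2 -0.57 (adjusted p 0.00687). The interaction of C5 at 24 h was -0.35 (adjusted p 0.382).

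**Figure D4:**
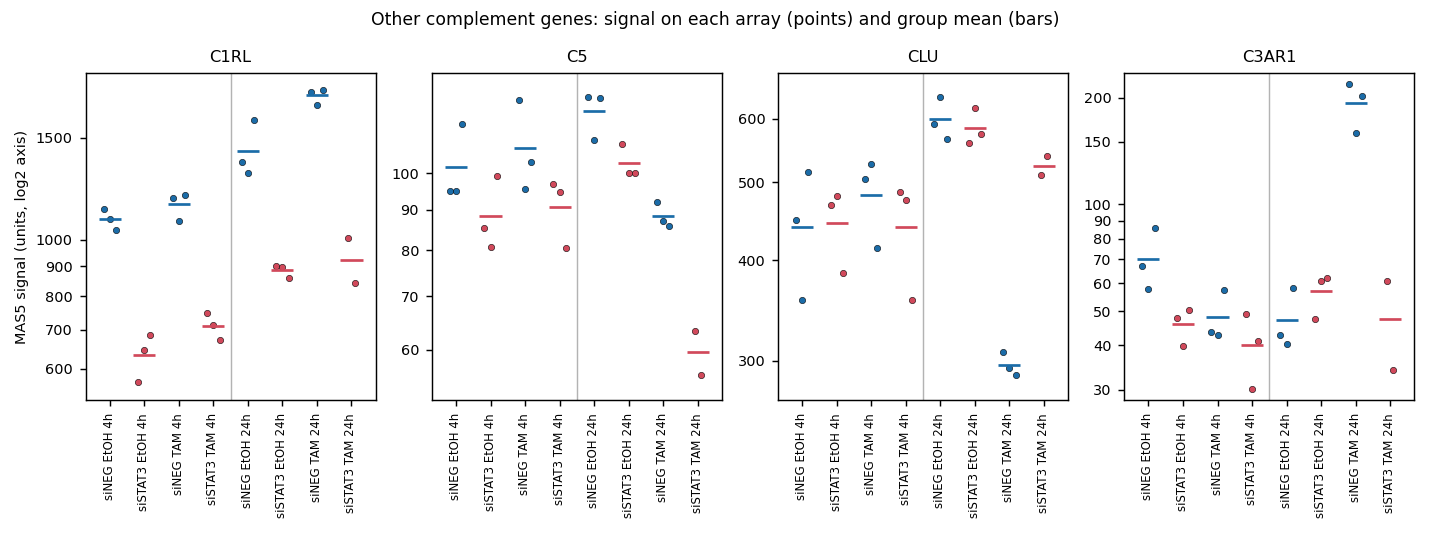
Signal on each array (points; vertical axes in MAS5 signal units on a log2 scale that differs between panels) of the 4 further complement genes called with TAM in siNEG cells, with siNEG arrays in blue, siSTAT3 arrays in red and bars at the group means. C3AR1 is above 100 units only on the siNEG TAM 24 h arrays (159 to 219 units), and CLU is lowest there (288 to 307 units).

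The genes whose log2 group means were most like those of 4 members were looked up among 3344 or 3345 genes, which had an SD of at least 0.3 over the 8 log2 group means and reached 100 units in some group. For CD55 they were BAMBI (Pearson correlation 0.986 over the 8 groups), CHSY1 (0.970) and TRIB1 (0.963). For CFB they were SERPINB3 (0.963), RRAGC (0.958) and PLPP3 (0.953). For C3 they were LSS (0.956), KHDC1L (0.921) and MVB12B (0.916). The group means of KHDC1L ran from 35.4 to 149 units and those of MVB12B from 96.2 to 207, so both fell below 100 units in some group. SERPING1 had TCL1B, SPRED1 and TMPRSS4 at 0.937 to 0.977, but its own signals were below 100 units throughout, so that this likeness is of values near the background.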

How the data were processed

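RNA from MCF10A-ER-Src cells (100 ng, amplified over 15 cycles with a 3′ in vitro transcription kit) was hybridised to 1-colour Affymetrix U133 Plus 2.0 arrays, 23 in all. The deposited values are linear signal intensities that the authors computed per probe set with MAS5, whose scaling target is not given in the sources used here. Probe sets were named from the platform annotation: 41097 had 1 gene, 1801 several and 11777 none. Log2 intensities, with nothing added and no filter, were fitted with limma 3.58.1 in R 4.3.3, with 1 mean for each of 8 groups. eBayes had 15 residual and 1.27 prior degrees of freedom, and p-values were adjusted over 54675 probe sets by the Benjamini-Hochberg method. A gene was called at an adjusted p below 0.05 of its main probe set. All 10 members were named, with all their probe sets. Other complement genes were named where called with TAM in siNEG cells or in the interaction and above 100 units in a group, and the 3 genes most like C3, CFB, SERPING1 and CD55 by correlation of group means. The members and lists were chosen with earlier results of these data known. The study's methods call the replicates biological, and what was separate between them (culture, transfection or treatment) is not given in the sources used here, so p-values measure the spread between these samples. Replicate numbers were not used to pair samples, since only some same-numbered arrays deviated together. Alternatives were a filter at 100 units, 16 units added before the log, quantile normalization, an intensity trend, arrays of 1 time point, the mean of a gene's probe sets, the methods' limits (p below 1e-04 and log2 change over 0.5), the replicate number as a block, and leaving out each array. The number of arrays limits the precision.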

Additional observations from a re-analysis of the deposited data

Results flagged for a closer look

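The TAM effect at 24 h differed between siSTAT3 and siNEG cells, by the interaction test, for C3 (0.6808 on the log2 scale) and CD55 (-1.449, and -1.235 and -1.529 on probe sets 1555950_a_at and 201926_s_at). It also differed for CD59 on probe sets 212463_at (-1.131) and 228748_at (-1.123), CD46 on probe set 211574_s_at (0.5233) and CLU (0.8593). C3AR1 was flagged too (-2.349), but it was above 100 units in siNEG cells with TAM at 24 h only. Its differences therefore rest on values not clearly above background. Their size cannot be read as such, and no difference in TAM effect is concluded for C3AR1. The calls of CD46 probe set 211574_s_at and CLU were lost without any 1 of 9 and of 8 of the 11 arrays involved (highest adjusted p 0.128 and 0.131). The main probe set of CD59 did not pass (-0.32, adjusted p 0.383), nor did that of CD46 (0.16, adjusted p 0.488).

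In siNEG cells the TAM effect differed between 24 and 4 h, by the test of that difference, for C3 (-0.5459), CD55 (1.202, and 1.112 and 1.263 on probe sets 1555950_a_at and 201926_s_at) and CLU (-1.152). C3AR1 was flagged here too (2.581), with the same limit, and no difference between the times is concluded for it. For CD59 the TAM effect differed on probe sets 200985_s_at (0.4662), 200984_s_at (0.5543), 212463_at (1.223) and 228748_at (1.138), and not on the main one (0.51, adjusted p 0.079). The call of 200985_s_at was lost without any 1 of siNEG EtOH 4 h replicate 1, siNEG EtOH 24 h replicate 3, siNEG TAM 4 h replicates 1 and 3 and siNEG TAM 24 h replicate 2 (adjusted p 0.0508 to 0.0547).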

How the results depend on the processing

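For the main probe sets of the 10 members, 130 differences were recomputed 1914 times over the alternatives: 1816 kept their side of the threshold and, where called, their direction, 76 lost the call, 22 gained one and 0 reversed. A difference that was not called was taken to have no direction. Of 700 recomputations of the 50 called differences, 624 kept the call. The 1 reversal over all recomputed values was C1RL over time in siNEG cells with EtOH, 0.39 on its main probe set and -0.068 as the mean of its probe sets (adjusted p 0.946).

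Counts of members called moved under these settings. For TAM in siSTAT3 cells at 4 h, the filter and the intensity trend gave 2 and the mean of probe sets 0, against 1. For the TAM effect at 24 h against 4 h in siNEG cells, the filter and the trend gave 4 and the methods' limits 1, against 2. For TAM in siNEG cells at 4 h, arrays of 1 time point and the limits each gave 1, against 3. For TAM in siSTAT3 cells at 24 h, arrays of 1 time point, the mean of probe sets and the limits each gave 1, against 2. For the interaction at 4 h, the mean of probe sets gave 1 (CD59), against 0. For time with EtOH, the limits gave 2 against 4 in siNEG cells and 1 against 6 in siSTAT3 cells. Leaving out 1 array gave 1 to 2 for TAM in siNEG cells at 4 h, 1 to 2 for TAM in siSTAT3 cells at 24 h, 2 to 3 for the interaction at 24 h, 2 to 3 for the TAM effect at 24 h against 4 h, 3 to 4 for time in either kind of cell, and 6 to 7 for siSTAT3 with TAM at 24 h. The cause of these moves was not tested.

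With the replicate block, 2 members were called with TAM in siNEG cells at 4 h, C1R being lost (adjusted p 0.0568), and 7 with siSTAT3 and TAM at 24 h, CD59 being lost (0.0761). Of 77 pairs of arrays with the same number, 11 had deviations that correlated above 0.1 (median 0.0276, against -0.0172 for other pairs), and 18 of 23 arrays were closer to their own number, a hint of pairing from the data and not from the design. The fit of 1 time point lost CD46 with siSTAT3 at 24 h (EtOH 0.0661, TAM 0.123), CD59 with TAM at 24 h in siSTAT3 cells (0.126) and against siNEG cells (0.115), and C1R (0.128) and CD55 (0.157) with TAM in siNEG cells at 4 h. The mean of probe sets lost C1S over time in siNEG (0.541) and siSTAT3 cells (0.0659). Quantile normalization lost CD55 with TAM in siNEG cells at 4 h (adjusted p 0.0586), CD46 with siSTAT3 and TAM at 24 h (0.0539) and CFB over time in siSTAT3 cells (0.0507). Signals below 100 units, as for CFD and SERPING1, limit what can be said of those genes.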
